A study of Arabidopsis thaliana with 20 samples.

Results

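Seedlings of Arabidopsis thaliana that lack both MYB3R1 and MYB3R4 are described here across the genes of a whole-genome Affymetrix array. Among the 20 arrays of the series, 10 were made from whole 9 d seedlings, 1 per genotype, and 2 of those 10 genotypes lack both genes by their labels. These are the myb3r1 myb3r4 double mutant and the myb3r1 myb3r3 myb3r4 myb3r5 quadruple mutant, together called the both-lost seedlings below. The other 8 genotypes keep at least one of the pair. They are the myb3r4 and myb3r1 single mutants, the myb3r3 myb3r4 myb3r5 and myb3r1 myb3r3 myb3r5 triple mutants, the myb3r3 and myb3r5 single mutants, the myb3r3 myb3r5 double mutant and the wild type, strain Columbia. All seedlings grew untreated in continuous light at 22 °C on agar with 2% sucrose, and the labels name neither the alleles nor the number of plants pooled per sample. The remaining 10 arrays hold the first leaf pair of the myb3r1 myb3r3 myb3r5 triple mutant and of the wild type, sampled at 15 d (3 arrays of each) and 5 d (2 arrays of each), and served as a separate readout.

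MYB3R proteins are MYB transcription factors with 3 DNA-binding repeats that recognise the mitosis-specific activator element, a short sequence shared by promoters of many plant genes expressed at the G2 to M transition. In Arabidopsis, MYB3R1 and MYB3R4 are known as activators of such genes, needed for complete cytokinesis, whereas MYB3R3 and MYB3R5, together with MYB3R1, are known to repress them in cells that have stopped dividing. The comparison asks which transcripts depend on the activator pair, that is, which change when both members are missing while either member alone keeps them near the wild-type level.

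The values are MAS5 signals, linear intensity values with 1 signal per probe set and array. Signals under 33 were set to that floor and log2 was taken; tests were limited to probe sets with a signal over the floor on 2 or more of the 10 seedling arrays, which left 18805 of 22810 probe sets, 10600 of them with exactly 1 gene name. The 10 seedling arrays were alike in scale, with 21.4% to 24.5% of probe sets under the floor and correlations of log2 signal of 0.971 to 0.988 between arrays; the 2 both-lost arrays correlated at 0.984. None of the 5 MYB3R genes has a named probe set, so the genotypes stand as labelled. Of 21 tissue markers for root, stomatal lineage, trichome, shoot meristem, green leaf and vasculature, 10 had a named probe set, none of them for vasculature. Of those tested, none differed by the test between both-lost and other seedlings. The root hair gene EXPA7 had 94 to 116 in both-lost seedlings and 62.7 to 126 in the other 8. The meristem gene CLV3, the only one of its tissue with a named probe set, lay under the floor and was not tested. Because each genotype had 1 array, the genotypes of a class served as its replicates, and the p-values reflect nothing but the spread among these arrays, which may be technical.

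Few transcripts separated the both-lost seedlings from all others beyond that spread. In limma with Benjamini-Hochberg adjustment over all 18805 probe sets, 3 probe sets were lower in the both-lost seedlings (0.016%) and 0 were higher (0%) at an adjusted p under 0.05. The 3 that fell were AT3G02120, AT3G02640 and AT1G47970, genes known here by locus only. At an unadjusted p under 0.05 there were 557 probe sets (2.96%), of which 297 were lower (1.58%) and 260 higher (1.38%). That total is under the share of 0.05 that chance alone gives. Both both-lost arrays lay below all 8 others for 270 probe sets (1.44%) and above all 8 for 238 (1.27%); among probe sets with 1 gene the counts were 140 of 10600 (1.32%) and 107 of 10600 (1.01%). With no genotype effect, each of the 45 pairs of seedling arrays would lie lowest, or highest, equally often. That is 1 in 45 probe sets. Neither 1.44% nor 1.27% exceeds that share, so lying outside all 8 is not in itself evidence of an effect. Among the 270, the class means differed by at least 2-fold for 17, and among the 238 for 13.

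AT3G02120 showed the largest difference of the 3 called genes. Its signal was 50.5 in the double and 39.7 in the quadruple mutant, against 229 in myb3r4, 154 in myb3r3 myb3r4 myb3r5, 388 in myb3r1, 311 in myb3r1 myb3r3 myb3r5, 332 in myb3r3, 492 in myb3r5, 446 in myb3r3 myb3r5 and 407 in the wild type. The groups did not overlap, and the nearest of the 8 others, myb3r3 myb3r4 myb3r5, had more than 3 times the signal of either both-lost array. The gene was 7.28-fold lower in the both-lost seedlings (log2 difference -2.86, SE 0.35, 2 against 8 arrays, limma adjusted p = 0.0132). Both both-lost signals lay close to the floor, and with a floor of 100 the difference was -1.70 (adjusted p = 0.197). In whole seedlings, fewer cells that express a gene and less RNA per cell cannot be told apart.

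AT3G02640 differed from AT3G02120 in that loss of MYB3R4 alone left its signal at the wild-type level. It had 414 in the double and 325 in the quadruple mutant, against 1419 in myb3r4, 838 in myb3r3 myb3r4 myb3r5, 1318 in myb3r1, 1691 in myb3r1 myb3r3 myb3r5, 1255 in myb3r3, 1535 in myb3r5, 1133 in myb3r3 myb3r5 and 1424 in the wild type. Again the lowest of the 8 others was the myb3r3 myb3r4 myb3r5 triple mutant, and the groups did not overlap. The fall was 3.55-fold (log2 difference -1.83, SE 0.20, adjusted p = 0.0132).

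AT1G47970 changed least in size and spread least. Its signal was 679 in the double and 722 in the quadruple mutant, against a range of 1113 to 1406 and a median of 1261 in the other 8 genotypes. All 8 others lay within a narrow band and no single or triple mutant was intermediate. The fall was 1.79-fold (log2 difference -0.84, SE 0.10, adjusted p = 0.0132). Leaving out a both-lost array leaves 1 array in that class, which is then taken to vary like the other 8. The log2 differences stayed about as large: without the double mutant they were -3.04 for AT3G02120, -2.002 for AT3G02640 and -0.79 for AT1G47970, and without the quadruple mutant -2.69, -1.65 and -0.88 in the same order. The adjusted p was then 0.154, 0.0592 and 0.241 without the double mutant and 0.559 for each gene without the quadruple mutant. The number of probe sets called lower was 0 without either of these arrays, 10 without the myb3r3 myb3r4 myb3r5 array and 5 without the myb3r1 myb3r3 myb3r5 array.

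**Figure D1:**
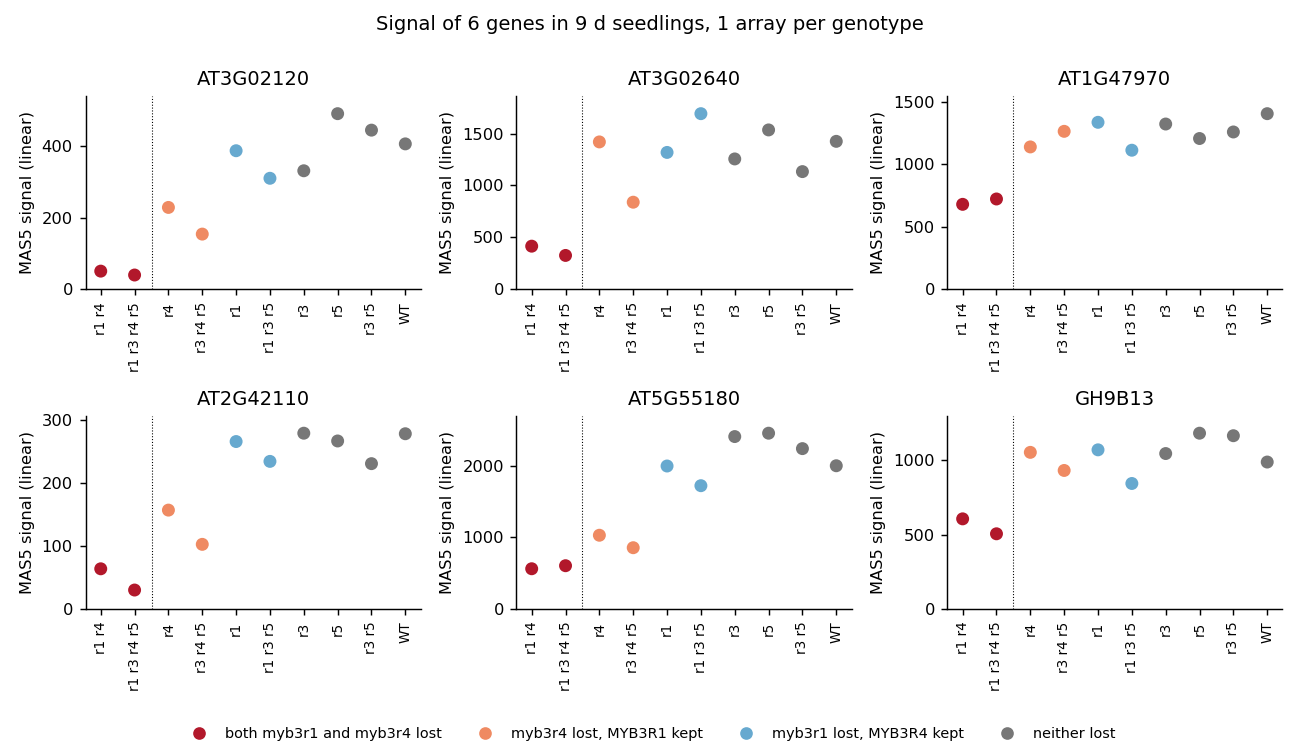
MAS5 signal (linear axis from 0) of AT3G02120, AT3G02640, AT1G47970, AT2G42110, AT5G55180 and GH9B13 in each 9 d seedling genotype, 1 point per array, with the mutated MYB3R genes given by number (r1 for myb3r1). The 2 both-lost arrays, left of the dotted line, lie below the other 8 in every panel; the myb3r4 and myb3r3 myb3r4 myb3r5 arrays lie between them and the rest for AT3G02120, AT2G42110 and AT5G55180.

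The dependence on one or both activators was tested by splitting the other 8 genotypes. With 3 classes (both lost, one lost, neither lost), 9 probe sets were lower in both-lost than in neither-lost seedlings (0.0479%) and 1 was higher (0.00532%). No probe set passed for both lost against one lost (limma, 0 lower and 0 higher; 525 at an unadjusted p under 0.05, 2.79%) or for one lost against neither lost (0 lower and 0 higher; 698 unadjusted, 3.71%). The 9 lower ones were the 3 genes above, AT2G42110, AT5G55180, GH9B13 (a glycosyl hydrolase family 9 member), AT3G42725 and the unnamed probe sets 253480_at and 246920_at; the higher one was the unnamed probe set 252265_at. For AT3G02120 the difference was -3.21 between both lost and neither lost (adjusted p = 0.00509), -2.51 between both and one lost (adjusted p = 0.0532) and -0.70 between one and neither lost (adjusted p = 0.997). AT3G02640 gave -1.86, -1.80 and -0.06 in that order, and AT1G47970 gave -0.89, -0.79 and -0.10. In class means, nearly the whole difference of these 2 genes lay between losing one and losing both. For AT3G02640 the one-lost mean covers a spread from 838 in myb3r3 myb3r4 myb3r5 to 1691 in myb3r1 myb3r3 myb3r5. Neither gene passed for both against one lost (limma adjusted p = 0.0532 for AT3G02640 and 0.1002 for AT1G47970). Both were picked on the same arrays against all 8 others, which favours genes with little spread among the 8, so this split is a description. The number called lower against neither lost moved with single arrays: it was 0 without the quadruple mutant, 1 without the double mutant, wild type, myb3r3 or myb3r5, 2 without myb3r3 myb3r5, 6 without myb3r4, and 12 without myb3r3 myb3r4 myb3r5. AT3G42725 was the only one of the 9 that differed more between one and neither lost than between both and one lost. The rest of the 9 also lay on the lower side where one gene was lost, from -0.78 (AT5G55180) to -0.06 (AT3G02640). AT3G42725 was under the floor in both both-lost seedlings (15.7 in the double and 12.9 in the quadruple mutant) and at 28.9 in myb3r3 myb3r4 myb3r5. It had 37.1 in myb3r1 myb3r3 myb3r5, 41.3 in myb3r4, 66.9 in myb3r1, and 96.4 to 147 in the 4 genotypes that lost neither gene. Its difference was -1.52 between one and neither lost and -0.38 between both and one lost, the latter limited by the floor.

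A product term in a fit with 1 term per allele measures how far the both-lost arrays depart from the sum of the single losses on the log2 scale. No probe set passed for this term (limma, 0 lower and 0 higher of 18805; 913 at an unadjusted p under 0.05, 4.86%), in a fit with 4 residual degrees of freedom. The product term was -1.81 (SE 0.28) for AT3G02120 and -1.74 (SE 0.29) for AT3G02640, both with an adjusted p of 0.606. It could also be read in separate sets of 4 arrays, one with MYB3R3 and MYB3R5 intact and one lacking both. AT3G02120 departed by -2.11 with MYB3R3 and MYB3R5 intact and by -1.44 without them, AT3G02640 by -1.66 and -1.94, and AT1G47970 by -0.67 and -0.63. These values are a description, since the 3 genes were picked on the same arrays for being low where both genes were lost.

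The term for loss of MYB3R4 itself passed for 2 probe sets, both lower (0.0106%). One was AT5G55180, whose signal was 560 in the double and 602 in the quadruple mutant, against 1029 in myb3r4, 854 in myb3r3 myb3r4 myb3r5 and 1723 to 2458 in the 6 genotypes that keep MYB3R4. The signals thus lay in 3 separate bands, lowest where both genes were lost. Its myb3r4 term was -1.28 (SE 0.13, adjusted p = 0.0238) and its product term -0.40 (SE 0.20, adjusted p = 0.992). The other was the unnamed probe set 252078_at, with 31.7 in the double, 37.6 in the quadruple, 44.1 in myb3r4 and 30.5 in myb3r3 myb3r4 myb3r5, against 169 to 205 in the 6 genotypes that keep MYB3R4. The double and quadruple mutants lay between the myb3r3 myb3r4 myb3r5 array and the myb3r4 array. No probe set passed for the myb3r1 term (2114 at an unadjusted p under 0.05, 11.2%).

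Intermediate signals in the myb3r4-lacking seedlings recurred among the largest differences. Among the 10 named genes with the largest falls of class means that did not overlap, with a mean of at least 4 times the floor in one class, myb3r4 and myb3r3 myb3r4 myb3r5 were the lowest of the 8 others in 6, and myb3r1 and myb3r1 myb3r3 myb3r5 in 0. The same held for 21 of the 270 probe sets below all 8 (7.78%), against 422 of all 18805 tested (2.24%). For the myb3r1-lacking arrays the counts were 15 of 270 (5.56%) and 1276 of 18805 (6.79%). The 270 are themselves no more than array order alone gives. Apart from AT3G02120 and AT3G02640, none of the 10 passed the test of both lost against the other 8. AT2G42110 had 63.3 in the double and 29.6, under the floor, in the quadruple mutant, against 156 in myb3r4, 102 in myb3r3 myb3r4 myb3r5 and 230 to 278 in the other 6 (log2 difference -2.24, adjusted p = 0.0762). AT3G52110 had 102 and 77.0 in the double and quadruple mutants, against 180 and 145 in the myb3r4-lacking genotypes and 262 to 344 in the other 6 (-1.59, adjusted p = 0.21). AT3G51720 had 291 and 250 in the double and quadruple mutants, against 374 and 360 in the myb3r4-lacking genotypes and 630 to 1139 in the other 6 (-1.26, adjusted p = 0.992). In all 3 the order was both lost, then MYB3R4 lost alone, then the rest.

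The remaining members of the 10 did not share that order throughout. AT3G55710 did, with 34.3 and 44.7 in the double and quadruple mutants, against 63.2 to 278 in the other 8 (log2 difference -1.81, adjusted p = 0.444). SWEET10, a sugar transporter of the SWEET family, had 54.9 and 44.3 in the double and quadruple mutants, against 66.9 to 380 in the others, where myb3r4 was the lowest and myb3r3 myb3r4 myb3r5 the highest (-1.44, adjusted p = 1). AT1G19200 had 88.1 and 99.2 against 159 to 445 (-1.37, adjusted p = 0.938). AT1G20030 had 47.9 in the double and 128 in the quadruple mutant, against 139 to 290 (-1.30, adjusted p = 0.801), so the quadruple mutant was close to the lowest of the others.

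Some genes with smaller differences and little spread came near the threshold and were picked after their values were seen. GH9B13 had 606 in the double and 505 in the quadruple mutant, against 845 to 1184 in the other 8 (log2 difference -0.90, adjusted p = 0.0517). SP1L2, a member of the SPIRAL1-like family of microtubule proteins, had 198 and 194 in the double and quadruple mutants, against 329 to 540 (-1.11, adjusted p = 0.0762). In neither gene were the 2 myb3r4-lacking arrays together the lowest of the 8. Of the probe sets with no gene name, 253480_at had 530 and 540 in the double and quadruple mutants, against 989 to 2842 in the others (-1.93, adjusted p = 0.0816), with the myb3r4-lacking arrays again lowest of the 8. The unnamed 246920_at had 191 and 147, against 261 to 525 (-1.32, adjusted p = 0.0762).

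Loss of both genes could be compared in pairs of arrays that share none, the double mutant against the wild type and the quadruple mutant against myb3r3 myb3r5. In the first pair 74 probe sets were at least 2-fold lower (0.394%) and 0.718% of all were at least 2-fold higher, and in the second 201 were lower (1.07%) and 116 higher (0.617%). At least 2-fold lower in both pairs were 19 probe sets (0.101%), and at least 2-fold higher in both were 12 (0.0638%), while 13 moved in opposite directions (0.0691%). Across all 18805 probe sets the 2 differences correlated at 0.048, given as a description, since probe sets are not independent. AT3G02120 gave a log2 difference of -3.01 in the double mutant relative to the wild type and -3.49 in the other pair; AT2G42110 gave -2.13 and -2.80, and AT3G02640 gave -1.78 and -1.80. These 3 genes were picked for lying below all 8 others, among them the wild type and myb3r3 myb3r5. A fall in both pairs was thus given by that choice. Away from such genes the pairs had little in common.

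**Figure D2:**
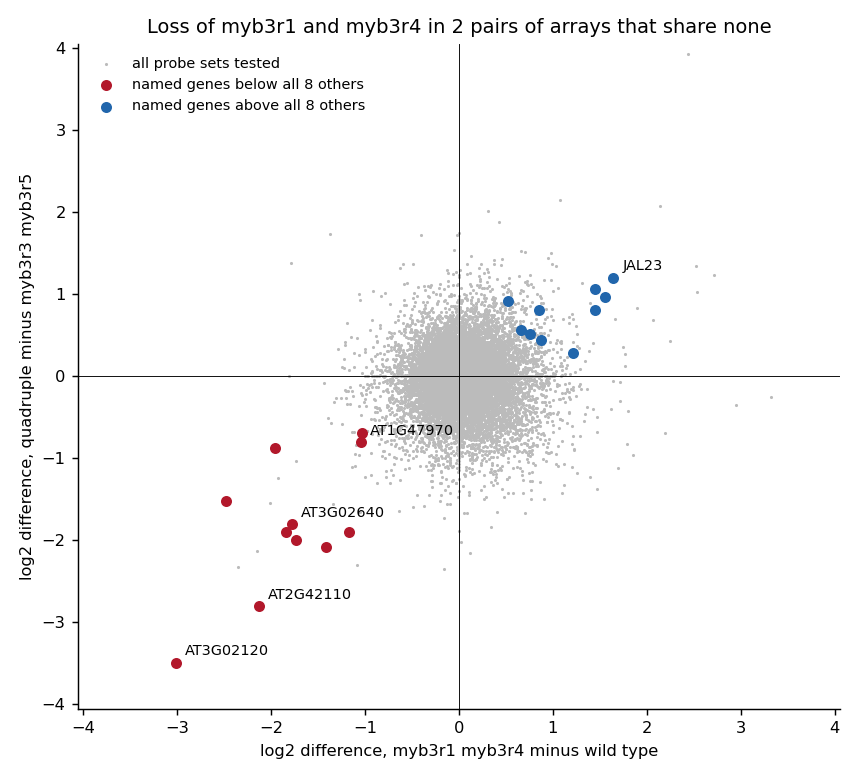
Log2 difference of the myb3r1 myb3r4 double mutant minus the wild type (horizontal) and of the quadruple mutant minus myb3r3 myb3r5 (vertical), 1 grey point per probe set tested (18805); red and blue mark the named genes below and above all 8 other genotypes. The red genes extend to -3.01 and -3.49 (AT3G02120), while the grey cloud shows a correlation of 0.048. The marked genes were chosen on these arrays, so the sign of both their differences follows from that choice.

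No gene rose by the test in the both-lost seedlings, and the 10 named genes with the largest non-overlapping higher signals differed by 0.66 to 1.49 log2 units. JAL23, a jacalin-related lectin, led them with 684 in the double and 931 in the quadruple mutant, against 212 to 407 and a median of 271 in the other 8 (2.81-fold, log2 difference 1.49, SE 0.25, adjusted p = 0.0762). Both both-lost arrays were well clear of the highest other genotype, myb3r1. AT1G52000 had 1074 and 1334 in the double and quadruple mutants, against 323 to 768 (1.21, adjusted p = 0.762). BGLU33, a beta glucosidase, had 1292 and 1380, against 623 to 982 (0.78, adjusted p = 0.21). AT3G23550 had 1876 and 2688, against 474 to 1621 (1.30, adjusted p = 1), a wide range among the genotypes that keep one of the pair. The others were AT5G52760, AT5G60400, AT1G23840, AT1G23850, AT5G59330 and AT5G64110, with differences of 0.66 to 1.11 and adjusted p from 0.941 to 1. The myb3r4-lacking arrays were the highest of the 8 others in 0 of these 10 genes (2.45% of all tested), and the myb3r1-lacking arrays likewise in 0 (4.81% of all tested).

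**Figure D3:**
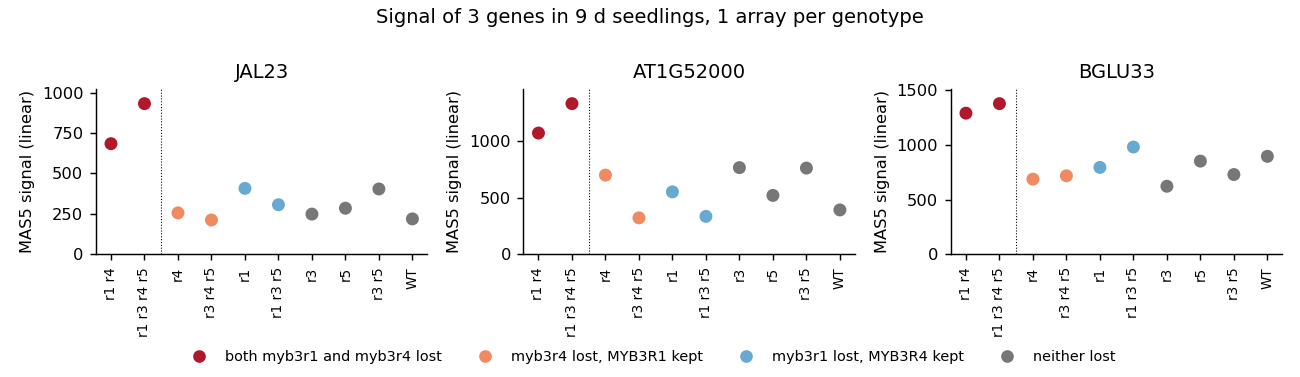
MAS5 signal (linear axis from 0) of JAL23, AT1G52000 and BGLU33 in each 9 d seedling genotype, 1 point per array. The both-lost arrays, left of the dotted line, lie above the other 8 in each panel (684 and 931 against at most 407 for JAL23), and none of the 3 differences passed the test.

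Among probe sets without a gene name, larger differences in this direction were seen. The unnamed 252265_at had 578 in the double and 1630 in the quadruple mutant, against 316 in myb3r3 myb3r4 myb3r5 and 78.6 to 142 in the other 7 (log2 difference 2.91, adjusted p = 0.0517). It passed only against the seedlings that lost neither gene (3.27, adjusted p = 0.0238). The unnamed 251625_at had 677 and 866 in the double and quadruple mutants, against 46.6 to 486 (1.99, adjusted p = 1).

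Genes of the G2 to M programme, the known targets of MYB3R proteins, were not lower as a group in the both-lost seedlings. Of 30 such genes listed, 8 had a named probe set: the Aurora kinases AUR1, AUR2 and AUR3, which phosphorylate histone H3 and act in spindle and division-plane formation; BUBR1, of the spindle checkpoint; KINESIN-12B, a motor of the phragmoplast; the mitotic chromosome proteins 3xHMG-box1 and 3xHMG-box2; and AT1G63100. None of the 8 was called or lay outside all 8 other genotypes, beside 0.016% called lower and 1.44% below all 8 over the array. Their median difference was 0.29, with 7 higher and 1 lower, against a median of -0.01 over all probe sets tested. This median moved with single arrays, to 0.79 without the double mutant and to -0.17 without the quadruple mutant. The one on the lower side was AT1G63100, with 186 in the double and 180 in the quadruple mutant, against 179 in myb3r3 myb3r4 myb3r5, 254 in myb3r4 and 273 to 358 in the other 6 (-0.62, adjusted p = 1).

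The quadruple and the double mutant differed for several of these genes. AUR2 had 1023 in the quadruple and 348 in the double mutant, beside 1107 in myb3r1 myb3r3 myb3r5, 556 in myb3r3 myb3r4 myb3r5, 769 in myb3r3 myb3r5 and 353 in the wild type. BUBR1 had 372 in the quadruple and 116 in the double mutant, beside 384 in myb3r1 myb3r3 myb3r5, 112 in myb3r3 myb3r4 myb3r5, 170 in myb3r3 myb3r5 and 107 in the wild type. KINESIN-12B had 412 in the quadruple and 173 in the double mutant, beside 339 in myb3r1 myb3r3 myb3r5 and 143 in the wild type. These 3 genes were thus, in the quadruple mutant, close to or above the myb3r1 myb3r3 myb3r5 triple mutant and, in the double mutant, close to the wild type. 3xHMG-box1 had 688 in the quadruple and 239 in the double mutant, beside 435 in myb3r1 myb3r3 myb3r5 and 194 in the wild type. AUR1 differed less, with 962 in the quadruple and 767 in the double mutant, and AUR3 was lower in the quadruple mutant, with 98.3 against 144 in the double.

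Whether this difference extended beyond the list was read from genes chosen on the leaf arrays, which hold no both-lost sample. In first leaves at 15 d, 115 of 18083 probe sets were higher in the myb3r1 myb3r3 myb3r5 triple mutant than in the wild type (0.636%) and 4 lower (0.0221%). With the replicate number as a block these counts were 296 (1.64%) and 194 (1.07%). Without triple-mutant replicate 1 they were 604 and 703, and the higher count was 68 without wild-type replicate 2 and 74 without wild-type replicate 3. Of the 115, 113 were tested in seedlings, among them AUR1, AUR2, BUBR1, KINESIN-12B and 3xHMG-box1. Loss of MYB3R3 and MYB3R5 could be set in 4 pairs of seedling arrays that share none: quadruple minus double, myb3r1 myb3r3 myb3r5 minus myb3r1, myb3r3 myb3r4 myb3r5 minus myb3r4, and myb3r3 myb3r5 minus wild type. The median log2 difference of the 113 was 0.95, 0.79, 0.30 and 0.61 in these pairs, against -0.01, -0.01, -0.02 and 0 over all probe sets tested. At least 2-fold higher were 54 of the 113 in the quadruple relative to the double mutant (47.8%, against 0.893% of all tested). In the other pairs the counts were 44 (38.9%, against 1.35%), 23 (20.4%, against 2.11%) and 29 (25.7%, against 1.59%). With the 282 probe sets of the block fit the medians were 0.36, 0.40, 0.31 and 0.35. The median was thus largest, for the 113, where both activators were already missing, though with 1 array per genotype the order of the pairs has no test.

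For the same 113 probe sets, loss of the activators alone could be read in the pairs used above for the falls. Their median difference was 0.11 in the double mutant minus the wild type, 0.36 in the quadruple mutant minus myb3r3 myb3r5, and 0.19 in both-lost minus other seedlings; 4 lay below all 8 (3.54%, against 1.44% of all) and 1 above (0.885%, against 1.27%). The probe sets below all 8 and those higher in 15 d triple-mutant leaves thus shared 4, that is 4 of 270 (1.48%) and 4 of 113 (3.54%). Of the 270, 260 were tested in leaves, and over all probe sets tested in leaves 0.636% were higher in the triple mutant. With the replicate block, AT5G55180 was also higher in the 15 d triple-mutant leaves (log2 difference 1.57, adjusted p = 0.00865 with the block and 0.628 without).

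**Figure D4:**
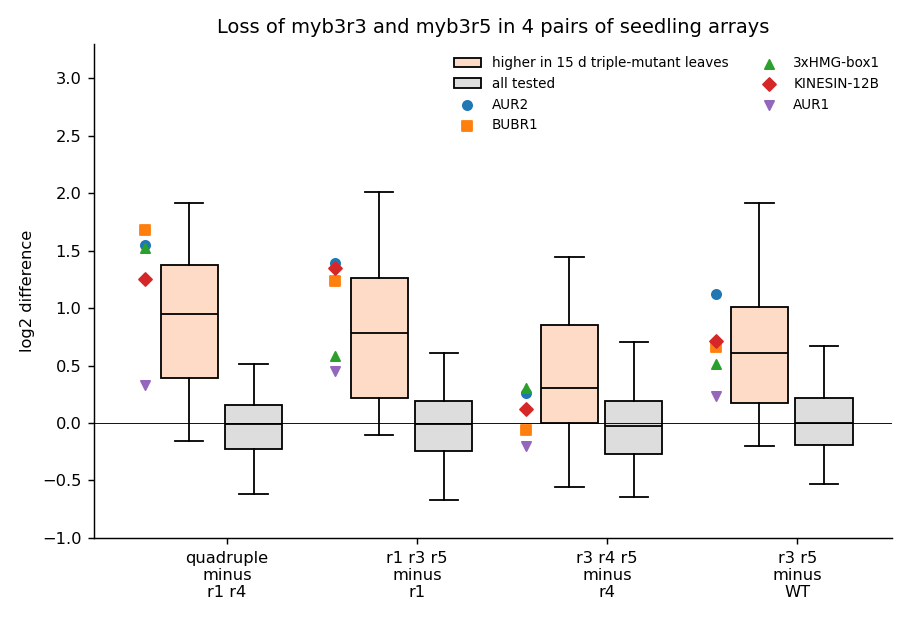
Log2 difference for loss of myb3r3 and myb3r5 in 4 pairs of seedling arrays that share none. Boxes give the quartiles and median and whiskers the 5th and 95th percentiles of the 113 probe sets higher in 15 d triple-mutant leaves (orange) and of all 18805 tested (grey), and symbols mark AUR2, BUBR1, 3xHMG-box1, KINESIN-12B and AUR1. The orange medians are 0.95, 0.79, 0.30 and 0.61 from left to right.

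Among probe sets with exactly 1 gene and a signal of at least 4 times the floor, the widest differences between the quadruple and the double mutant were seen for AT1G03920, with 349 in the quadruple and 59.8 in the double mutant (log2 difference 2.54), AT4G03610 (2.26), AT2G16270 (1.92) and HIS1-3, a linker histone variant (1.91). On the lower side were AT4G19430, with 80.4 in the quadruple and 416 in the double mutant (-2.37), AT5G62210 (-1.87), the plastid gene ndhE (-1.77) and AT1G50060 (-1.42). At least 2-fold apart were 168 probe sets higher in the quadruple mutant (0.893%) and 149 lower (0.792%). AT1G03920 and AT4G03610 were also 2.30 and 2.21 log2 units higher in myb3r3 myb3r5 than in the wild type. These are differences of 1 array each, with no test.

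Other gene groups moved little. The 3 S phase genes measured had a median difference of -0.05; they include HTB1, a histone H2B, with 835 in the double and 1049 in the quadruple mutant, against 761 to 1127 in the others. PRL, a replication licensing MCM protein, had 561 and 478, against 462 to 663. For 7 tubulin genes the median was -0.05, and TUB5, a beta tubulin, had 1572 and 2388, against 2081 to 2799. HTR12, the centromeric histone H3, differed by -0.14 and the microtubule-depolymerising KINESIN-13A by -0.07. The cell-cycle inhibitor SIM, which promotes endoreduplication in trichomes, differed by 0.12 and its list partner AT1G08180 by -0.51. None of these was called, beside 0.016% called lower and 0% higher over the array. The named ones other than AT1G08180 were within 0.32 of 0.

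Photosynthesis, growth and detoxification genes likewise gave 0 calls, beside 0.016% called lower and 0% higher over the array. At that share 0 calls say little about these groups. Over the array 1.44% of probe sets lay below all 8 and 1.27% above. Medians were -0.07 for 6 nuclear photosynthesis genes (0.059 after quantile normalisation), -0.07 for 69 plastid-encoded probe sets (2 below all 8), 0.00 for 25 expansin and XTH genes of wall loosening (1 above all 8), 0.05 for 11 glutathione S-transferases (1 above all 8), 0.05 for 34 glycosyltransferases and 0.09 for 4 class III peroxidases. RCA, the Rubisco activase, had 17291 and 17514 in the double and quadruple mutants, against 16864 to 22867 in the others. The clock gene GI differed by -0.56, the cold genes COR15A and COR47 by -0.44 and -0.27, and the senescence gene WRKY53 by 0.30, each with an adjusted p of 1. SAG29, of the same list, had 72.5 and 96.0 in the double and quadruple mutants, against 79.6 to 488 in the others (adjusted p = 1). The leaf shape gene AN differed by 0.01.

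The defensin genes PDF1.2 and PDF1.2b, markers of jasmonate and ethylene signalling, had high but scattered signals. PDF1.2 had 3401 in the double and 12724 in the quadruple mutant, against 495 to 5112 and a median of 1234 in the other 8 (log2 difference 2.09, SE 0.75, adjusted p = 1). The groups overlapped, since myb3r1 myb3r3 myb3r5 had 5112. With terms for loss of MYB3R3 and MYB3R5 in the fit its adjusted p was 0.0353. PDF1.2b had 7561 and 14906 in the double and quadruple mutants, against 1019 to 7943 (1.81, adjusted p = 1). These are closely related copies, and how far their probe sets detect each other was not tested.

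Leaf age gave a readout that used none of the seedling arrays. In wild-type first leaves, 4468 of 18083 probe sets were lower in 15 d leaves than in 5 d leaves (24.7%) and 4058 higher (22.4%); with the replicate block these were 5656 (31.3%) and 5431 (30%). Young leaves at 5 d still divide, while leaves at 15 d have largely stopped. Of the 270 probe sets below all 8 in both-lost seedlings, 260 were tested in leaves, and 88 of them were lower at 15 d (33.8%, against 25.2% of the 17599 tested in both tissues) and 55 higher (21.2%, against 22.9%). Of the 238 above all 8, 227 were tested, with 45 lower (19.8%) and 80 higher (35.2%). The contrast was wider in the sets with class means at least 2-fold apart. Of the falls, 11 of 16 were lower at 15 d (68.8%) and 2 higher (12.5%); of the rises, 0 of 13 were lower (0%) and 9 higher (69.2%). These shares are descriptions with no test, since probe sets of one array share its errors. The 270 and the 238 were also no more than array order alone gives.

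Among the 10 named genes with the largest falls, 7 were lower with leaf age and 2 higher, against 25.2% and 22.9% of all tested. AT3G02120 had 38.6, 24.1 and 28.1 in wild-type leaves at 15 d, against 1754 and 1282 at 5 d (log2 difference -5.43, SE 0.28, adjusted p = 6.3e-06); 2 of the 3 arrays at 15 d lay under the floor. AT3G02640 had 73.6, 40.1 and 35 at 15 d, against 3532 and 3709 at 5 d (-6.27, SE 0.47, adjusted p = 2.2e-05). Both genes were near the floor in the older leaves and high in the young ones. AT2G42110, AT3G52110, AT5G55180, AT1G20030 and AT3G51720 were also lower at 15 d, by log2 differences of -3.57 to -4.61; that of AT2G42110 (-4.40) is a bound set by the floor, with 3 of 3 arrays under it at 15 d. SWEET10 and AT1G19200 were higher at 15 d, by 6.2 and 6.96, bounds set by the floor since both had 2 of 2 arrays under it at 5 d. AT3G55710 passed only with the replicate block (-0.68, adjusted p = 0.181 without and 0.012 with it).

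The third called gene did not share this profile. AT1G47970 had 1081, 730 and 513 at 15 d, against 1591 and 598 at 5 d in wild-type leaves (-0.40, SE 0.59, adjusted p = 0.627, and 0.0506 with the replicate block), and the 2 ages overlapped. GH9B13 was lower at 15 d (-3.79, adjusted p = 6.3e-06), a bound set by the floor since 3 of 3 arrays at 15 d lay under it, whereas SP1L2 differed by 0.14 (adjusted p = 0.901). Of the 10 named genes with the largest higher signals, 5 were higher with leaf age, against 22.9% of all tested. They were JAL23 (2.16), AT3G23550 (4.33), AT1G52000 (2.47), AT5G52760 (3.54) and AT1G23840 (2.19). For JAL23, AT5G52760 and AT1G23840 these are bounds set by the floor, with 2 of 2 arrays under it at 5 d. AT5G60400 and AT5G59330 were lower, by -1.46 and -1.62, the second a bound with 3 of 3 arrays under the floor at 15 d. BGLU33, also with 2 of 2 arrays under the floor at 5 d, was higher only with the replicate block (2.97, adjusted p = 0.236 without and 0.000304 with it).

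**Figure D5:**
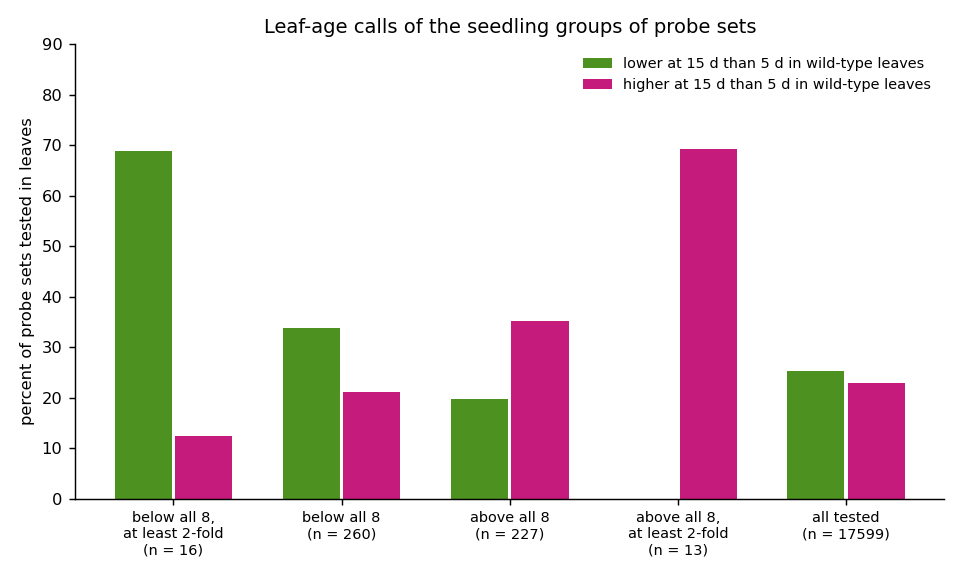
Percent of probe sets called lower (green) or higher (pink) in wild-type first leaves of 15 d relative to 5 d, for the probe sets below or above all 8 other genotypes in both-lost seedlings, for those whose class means also differ at least 2-fold, and for all probe sets tested in seedlings and leaves; n is the number tested in leaves. The lower share is 68.8% of the 16 falls of at least 2-fold and 0% of the 13 rises, against 25.2% of all.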

How the data were processed

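RNA of 10 seedling and 10 leaf samples was hybridised to Affymetrix arrays, 1 array per sample; biotinylated cRNA came from 10 micrograms of total RNA, per the labels' protocols. The deposited values are linear intensity values made by the authors with MAS5, per the submitters' processing notes; no source used here gives the version. The mean signal after trimming was 500.04 to 500.05 on every seedling array, so the authors had scaled the arrays alike. Precision is limited by the number of arrays.

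Probe sets were named from the platform's gene table, updated through TAIR10.1: 13513 of 22810 carried 1 gene, 503 several and 8730 none, and 64 were array controls; 13436 matched. No coordinates were used. Values under 33 were set to 33 and log2 was taken. Fits used limma 3.58.1 under R 4.3.3 (lmFit, eBayes with a variance trend, two-sided), with 8 residual degrees of freedom for both lost against the other 8 genotypes, 7 for 3 classes, 4 for 4 alleles and the product of myb3r1 and myb3r4, and 6 for the leaf groups. Calls were made at a Benjamini-Hochberg adjusted p under 0.05. Scripts were tested on simulated data. Figures used matplotlib 3.10.9 under Python 3.11.15.

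The compared genotypes, gene lists and rules were chosen with earlier results of these data known. Named genes were, among probe sets with 1 gene, those called, the 10 largest non-overlapping differences each way with a higher class mean of at least 4 times the floor where fewer than 5 were called, the 2 members of highest signal per list, the 4 largest differences each way between quadruple and double mutant, and at most 2 unnamed probe sets each way; the other G2/M genes, SP1L2, GH9B13 and the unnamed or AT3G42725 probe sets of the further fits were named after their values were seen. AT1G47970 was named because it was called. Lists with no named probe set (MYB3R genes, D-type cyclins, DNA damage, heat, salicylic acid and defence) were not analysed here; promoter sequence was not used here. At 15 d, leaf samples of the same replicate number deviated together (correlations of 0.72, 0.59 and 0.56). Of unlike numbers, mutant 2 with wild type 3 gave 0.42 and mutant 3 with wild type 2 gave 0.15, while the rest gave -0.46 to -0.66. At 5 d both pairs gave 0.48, which with 2 replicates is 1 value by construction. The numbers were taken to pair the samples, and a fit with the replicate block was run beside the main one. The alternatives were other floors, filters and normalisation, ordinary least squares, no variance trend, terms for myb3r3 and myb3r5, leaving out each array, and, chosen after seeing the data, the 8 arrays of the full factorial.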

Additional observations from a re-analysis of the deposited data

Results flagged for a closer look

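Among 60 named genes, the 8 seedling arrays that keep MYB3R1 or MYB3R4 were searched for a single array that lay far from the rest. One gene had such an array. AT1G08180, on the list of cyclin-dependent kinase inhibitors and endocycle genes, had 131.6 in myb3r3 myb3r5, against 166 to 205 in the other 7, and on the log2 scale its gap to the nearest array was 0.5265 of the whole range, just above the critical value for 8 arrays. In both-lost seedlings it had 138 in the double and 108 in the quadruple mutant. Chance alone flags about 1 in 20 groups, so 1 flag among 60 genes is fewer than chance gives.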

How the results depend on the processing

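The 3 genes called lower in both-lost seedlings kept their direction under every alternative run. Their calls did not all hold: AT3G02120 had an adjusted p of 0.197 with a floor of 100, 0.0632 with the filter at 1 array, 0.157 with no filter, 0.267 in the ordinary linear model and 0.0738 on the 8 factorial arrays. AT3G02640 had 0.0903, 0.17 and 0.0738 under the last 3, and AT1G47970 had 0.0741 without the variance trend, 0.0537 in the ordinary linear model and 0.0981 on the 8 factorial arrays. The cause was not tested. With a mean signal of at least 100, AT2G42110 (adjusted p = 0.0292), GH9B13 (0.0292), SP1L2 (0.0295) and JAL23 (0.0295) passed too. Of both lost against the other 8, 9 were called lower at a mean signal of 100, 1 with no filter, and 0 in the ordinary model and on the 8 factorial arrays. Called higher were 2 with a floor of 100, 2 at a mean signal of 100, 3 with no filter, 3 in the ordinary model and 2 with terms for myb3r3 and myb3r5; on the 8 factorial arrays 378 lay above all others. Both lost against neither lost gave 1 lower and 0 higher with the filter at 1 array or without the trend, 0 and 3 with no filter or in the ordinary model, 2 higher with terms for myb3r3 and myb3r5, and 0 and 0 on the 8 factorial arrays. Both lost against one lost gave 2, 4 and 3 calls at a mean signal of 100, with no filter and in the ordinary model. The product term gave 2 calls with no filter and 1 in the ordinary model.

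Leaving out each seedling array gave 0 to 10 called lower and 0 to 1 called higher, 320 to 1727 below and 282 to 1568 above all others, 0 to 12 lower and 0 to 1 higher against neither lost, 0 to 7 against one lost, 0 to 1 for one against neither lost, and 0 to 0 for the product term (672 to 1227 unadjusted). The lists' medians that moved were G2/M (0.79 without the double, -0.169 without the quadruple mutant), cold (0.155 without the double), GST (0.132 without the quadruple) and nuclear photosynthesis (0.059 after quantile normalisation). After quantile normalisation the sign turned for LHCB4.1 (0.043) and atpB (0.029), neither called. Leaving out each array turned the sign of 16 other genes, none of them called: AUR1 (-0.037 to 0.291), AUR2 (-0.629 to 0.925), AUR3 (-0.185 to 0.369), BUBR1 (-0.215 to 1.466), KINESIN-12B (-0.123 to 1.13), KINESIN-13A (-0.146 to 0.011), 3xHMG-box1 (-0.257 to 1.269), HTB1 (-0.092 to 0.238), HTR12 (-0.308 to 0.024), PRL (-0.209 to 0.022), SIM (-0.006 to 0.24), COR15A (-1.041 to 0.155), TUA6 (-0.206 to 0.051), AN (-0.118 to 0.142), EXGT-A3 (-0.243 to 0.211) and Prx37 (-0.044 to 0.294).

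In 15 d leaves, the replicate block, which pairs samples of the same number, gave 296 higher and 194 lower; quantile normalisation gave 7 lower and a floor of 100 gave 8 lower. Leaving out each leaf array gave 68 to 604 higher and 1 to 703 lower, and for leaf age 3043 to 4608 higher and 3405 to 4890 lower. Signals near the floor of 33 limit folds of dim genes.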
